A study of Homo sapiens with 6 samples.

Results

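The human mitochondrial genome encodes 37 genes, and all 37 were found in the count table as the rows whose chromosome was chrM, out of 30327 gene rows. They comprised 13 mRNAs, 2 rRNAs and 22 tRNAs. The rule used position only and no measured value. The genes were read in SK-BR-3 cells, an established HER2-positive breast cancer line, after transfection with a nontargeting control siRNA (si_NC, 3 libraries) or an siRNA against GRB2 (si_GRB2, 3 libraries), all cultured in the same medium with serum. GRB2 is an adaptor protein that links receptor tyrosine kinases to RAS signalling. The comparison asked how much of the poly(A) RNA came from mitochondrial genes, and which of those genes differed, when GRB2 was depleted.

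The labels of the treated libraries disagree with each other. Their titles, their genotype entry and the series' design text name GRB2 overexpression, whereas their descriptions and the siRNA methods name si_GRB2. GRB2 itself was at 124, 129.5 and 126 CPM in the si_NC libraries and at 27.8, 28.1 and 29.6 CPM in the si_GRB2 libraries. CPM is the count scaled to library size, here after TMM adjustment between libraries. GRB2 thus fell, with a log2 fold change of −2.15 ± 0.04 (SE, edgeR adjusted p = 3.87e-15), and the libraries are called by their descriptions. ERBB2, which encodes HER2, and the epithelial genes KRT8, KRT18, KRT19 and EPCAM were detected in all 6 libraries, with ERBB2 at 3329 to 4309 CPM by the counted reads alone, the scale used for these markers. The markers also differed between the groups. ERBB2 rose, with a log2 fold change of 0.24, and KRT8, KRT18, KRT19 and EPCAM changed by −0.41, −0.55, −0.20 and −0.55, all called by edgeR and without overlap between the groups. Of all genes tested, 30.6% were called in either direction, and 21.2% had every si_GRB2 library below every si_NC library. The part of these markers in the results was not tested. ESR1 stayed between 0.845 and 1.53, and PGR was at 0 in 5 libraries. Of 6 genes that mark other cell types, PTPRC, PECAM1, COL1A2 and VIM did not exceed 0.317, and COL1A1 was between 3.64 and 5.25 in all libraries. ACTA2 was at 1.26 to 2.24 in si_NC and 0.484 to 0.843 in si_GRB2, and its part in the results was not tested. Between 24810378 and 28532480 reads were counted on genes per library. The time from transfection to RNA extraction for these libraries was not given in the sources used here, and no source said whether the 3 libraries of a group came from separate cultures, so the p-values measure the spread between these libraries.

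Mitochondrial DNA is transcribed on both strands as long precursors, and the tRNAs that lie between the other genes are cut out to release mRNAs and rRNAs. The mRNAs encode subunits of respiratory complexes I, III and IV and of ATP synthase (complex V), while the rRNAs and tRNAs serve the mitochondrial ribosome. Most of these mRNAs carry a poly(A) tail, the mRNA of MT-ND6 lacks a long tail, and the rRNAs carry short tails. Poly(A) capture therefore does not retain the 3 kinds of RNA equally, and levels of different kinds were not read as relative abundance in the cell.

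The genes lie close together on the 16569 bases of chrM, and 3 pairs of coding sequences share bases. MT-ATP6 and MT-CO3 share 1 base. MT-ATP8 (chrM:8366-8572) and MT-ATP6 (chrM:8527-9207) share 46 bases, and MT-ND4L (chrM:10470-10766) and MT-ND4 (chrM:10760-12137) share 7 bases, so that reads over these stretches fit either gene. MT-ATP8 with MT-ATP6, and MT-ND4L with MT-ND4, are each carried on a single mRNA with overlapping reading frames. These junctions are shown from the plus strand of GRCh38, with the shared bases in capitals, because the values of the paired genes are not independent.
MT-ATP8/MT-ATP6 junction, chrM:8515-8584: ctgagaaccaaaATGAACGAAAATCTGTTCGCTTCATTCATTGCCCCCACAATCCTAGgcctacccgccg
MT-ND4L/MT-ND4 junction, chrM:10748-10778: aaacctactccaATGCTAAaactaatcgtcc

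A nuclear copy of part of this region is nearly identical and had reads counted on it. MTATP6P1 (GRCh38 chr1:633696-634376) differs from MT-ATP6 at 10 of 681 bases, an identity of 98.5%. One of these positions lies inside the stretch that MT-ATP8 and MT-ATP6 share. It is the capital in the following pair, which shows how little sequence separates the genes.
MT-ATP6, chrM:8533-8557: gaaaatctgttcGcttcattcattg
MTATP6P1, chr1:633702-633726: gaaaatctgttcActtcattcattg

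Reads on mitochondrial genes made up a smaller share of the library in si_GRB2 than in si_NC. All 37 genes together took 8.66%, 9.02% and 8.77% of the counted reads in the si_NC libraries and 7.80%, 7.59% and 7.76% in the si_GRB2 libraries. Every si_GRB2 library lay below every si_NC library. The means were 8.82% ± 0.184 and 7.71% ± 0.111 (SD, n = 3 each), a change of −12.5%. The exact two-sided permutation p was 0.1, the smallest that 3 against 3 libraries allow, and 0.2 after adjustment over 4 shares. In bulk RNA, fewer cells of a type and less RNA per cell cannot be told apart, nor can less mitochondrial RNA and more of all other RNA.

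The mRNAs carried this difference. Their share was 7.70%, 8.03% and 7.70% in si_NC and 6.87%, 6.62% and 6.80% in si_GRB2, again without overlap. The mean went from 7.81% ± 0.192 to 6.76% ± 0.125, a change of −13.4% (exact p = 0.1, adjusted 0.2). The rRNAs took 0.947%, 0.975% and 1.06% in si_NC and 0.916%, 0.953% and 0.943% in si_GRB2, and these ranges overlapped (exact p = 0.2, adjusted 0.267). The tRNAs took 0.0136%, 0.0119% and 0.00690% in si_NC and 0.0138%, 0.00902% and 0.0101% in si_GRB2, so the spread within a group was wider than the distance between the means (exact p = 0.900). Against the larger read totals by which the deposited FPKM values were scaled, the share of all 37 genes was 6.83% to 7.45% in si_NC and 6.16% to 6.38% in si_GRB2, which also did not overlap.

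**Figure D1:**
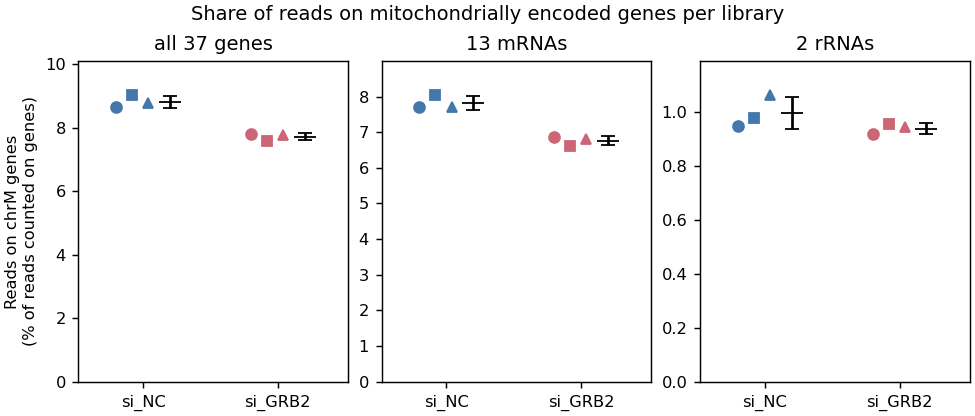
Percent of reads counted on genes that fell on all 37 chrM genes, the 13 mRNAs and the 2 rRNAs (y axes from 0, each with its own scale) in 3 si_NC (blue) and 3 si_GRB2 (red) libraries; circles, squares and triangles are libraries 1, 2 and 3, and the black bars are mean ± SD. The si_GRB2 libraries lie below the si_NC libraries for all genes (at most 7.80% against at least 8.66%) and for the mRNAs, while the rRNA values overlap.

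Tested gene by gene, 12 of the 13 mRNAs and 1 of the 2 rRNAs were lower in si_GRB2, and no mitochondrial gene was higher. A gene was called at an edgeR adjusted p under 0.05 over the 15801 genes that passed the filter on low counts. Of all those genes, 15.5% were called lower and 30.6% in either direction. Genes of at least 100 CPM, a group that holds every mitochondrial mRNA and rRNA, were called lower in 30.4% of cases. The median log2 fold change of the mRNAs was −0.26, beside 0.00 over all genes and −0.02 over those of at least 100 CPM. Of the 14 mitochondrial genes with an estimate above 0, 0 were called by edgeR or DESeq2 and 0 had an unadjusted p under 0.05. Of the members, 36 passed the filter, and MT-TW, with 31 reads in all, did not.

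The differences were small. Under a fold change limit of 1.5 with an edgeR adjusted p under 0.01, 2.52% of all genes passed but 0 mitochondrial genes did. The study set the same fold change and a p-value limit of 0.01 for a differentially expressed gene, but with DESeq2. It did not say whether that p-value was adjusted. In 10 mRNAs and 1 rRNA every si_GRB2 library lay below every si_NC library, which held for 21.2% of all genes tested. DESeq2 called 11 of the 13 genes, without MT-ND1 and MT-ND5, and called 1920 of 13864 genes lower in all. With limma on log2(FPKM + 1) over 29912 genes, 2 mitochondrial genes were called lower, among 566 genes in all. With log2(FPKM + 0.1), 0 were, among 607 in all. Limited to 10888 genes with a mean FPKM of at least 1, limma on log2(FPKM + 1) called 987 lower. Among these were MT-CYB, MT-ND3, MT-CO3, MT-ATP6, MT-CO2, MT-ND4, MT-ATP8, MT-CO1 and MT-ND2. The other mRNAs and both rRNAs were not called in that fit. Scaling by library totals alone left 11 called lower. It also turned the balance over all genes from 2442 lower of 4838 calls to 1733 lower of 5180.

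**Figure D2:**
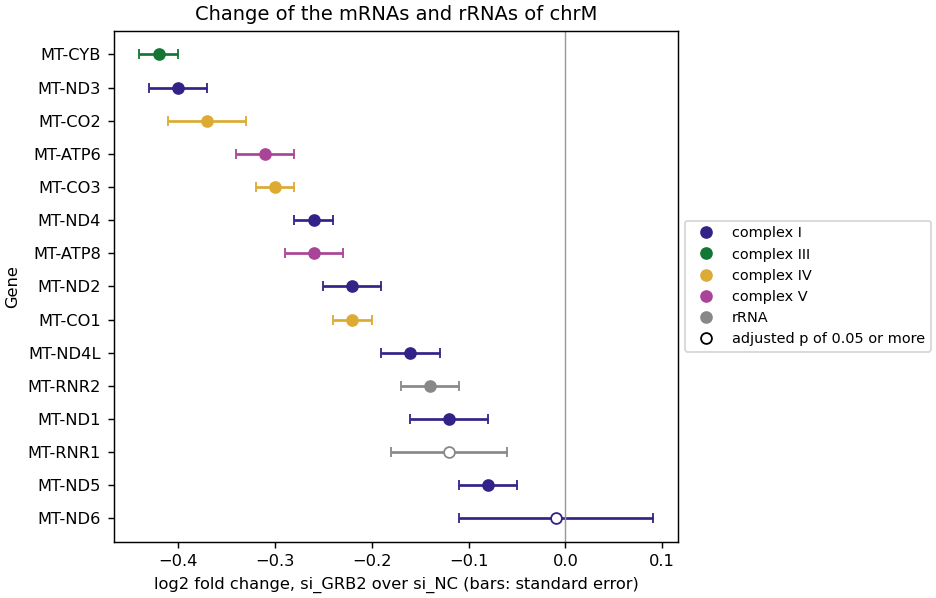
log2 fold change of si_GRB2 over si_NC (x axis) with its standard error for the 13 mRNAs and 2 rRNAs, ordered by size and coloured by respiratory complex; filled points had an edgeR adjusted p under 0.05. MT-CYB (−0.42) and MT-ND3 (−0.40) lie lowest, and MT-RNR1 and MT-ND6 are the open points.

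MT-CYB, which encodes cytochrome b, the only subunit of complex III made in the mitochondrion, had the largest fall among the 36 members tested. It was at 4385, 4642 and 4431 CPM in si_NC and at 3368, 3264 and 3436 CPM in si_GRB2. All si_GRB2 libraries were well below all si_NC libraries. The log2 fold change was −0.42 ± 0.02 (SE, edgeR adjusted p = 2.6e-09), and the level fell by 25.2%. The gene lies at chrM:14747-15887 on the plus strand, the last mRNA of that strand.

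Complex IV, cytochrome c oxidase, has its catalytic core encoded by MT-CO1, MT-CO2 and MT-CO3, and all 3 fell. MT-CO2 (chrM:7586-8269), whose product receives electrons from cytochrome c, was at 8257, 9442 and 8744 CPM in si_NC and at 7045, 6608 and 6858 CPM in si_GRB2. The groups did not overlap although the si_NC libraries were spread widely. Its log2 fold change of −0.37 ± 0.04 had an edgeR adjusted p of 8.6e-07.

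MT-CO1 (chrM:5904-7445), which encodes the subunit that reduces oxygen, had the highest mean CPM of any gene in the table. Its levels were 22572, 22927 and 22413 CPM in si_NC and 19626, 19185 and 19543 CPM in si_GRB2. The libraries of a group were close to each other and the groups far apart. The log2 fold change was −0.22 ± 0.02 (edgeR adjusted p = 3.19e-08). MT-CO3 (chrM:9207-9990) went from a mean of 4273 ± 146 to 3462 ± 74.7 CPM (SD, n = 3 each), a log2 fold change of −0.30 ± 0.02 (edgeR adjusted p = 1.21e-07).

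The ATP synthase subunits MT-ATP6 and MT-ATP8, which belong to its membrane part, both fell. MT-ATP6 was at 4159, 4436 and 4202 CPM in si_NC and at 3555, 3316 and 3419 CPM in si_GRB2, without overlap. The log2 fold changes were −0.31 ± 0.03 for MT-ATP6 (edgeR adjusted p = 2.56e-07) and −0.26 ± 0.03 for MT-ATP8 (edgeR adjusted p = 3.41e-06). How reads in the 46 shared bases were assigned was not stated.

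The 7 mRNAs of complex I, NADH dehydrogenase, differed among themselves. MT-ND3 (chrM:10059-10404) was at 1548, 1538 and 1507 CPM in si_NC and at 1187, 1099 and 1198 CPM in si_GRB2. The highest si_GRB2 library was far below the lowest si_NC library, and the log2 fold change was −0.40 ± 0.03 (edgeR adjusted p = 3.48e-08). MT-ND4 (chrM:10760-12137), which encodes part of the proton-pumping arm, had 20146, 21087 and 20088 CPM in si_NC and 17275, 16722 and 17124 CPM in si_GRB2. It was next to MT-CO1 in mean CPM, and its log2 fold change was −0.26 ± 0.02 (edgeR adjusted p = 5.15e-08).

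MT-ND2 (chrM:4470-5511) was at 3639.9, 4138 and 3847 CPM in si_NC and at 3358, 3223 and 3413 CPM in si_GRB2. It too had separate groups, with a log2 fold change of −0.22 ± 0.03 (edgeR adjusted p = 0.000151). MT-ND4L went from 1340.4 ± 54.6 to 1196 ± 21.5 CPM (SD, n = 3 each), a log2 fold change of −0.16 ± 0.03 (edgeR adjusted p = 0.000262). With library sizes from the FPKM scaling it was −0.12 and not called (edgeR adjusted p = 0.0541). With its partner MT-ND4 it shares a transcript, and their estimates came from different lengths of it.

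MT-ND1 and MT-ND5 were close to the threshold. MT-ND1 (chrM:3307-4262) was at 2702, 3082 and 2918 CPM in si_NC and at 2755, 2559 and 2689 CPM in si_GRB2. MT-ND5 (chrM:12337-14148) was at 2984, 3241 and 2973 CPM in si_NC and at 2975, 2827 and 2895 CPM in si_GRB2. In each the highest si_GRB2 library, number 1, exceeded the lowest si_NC library, so the groups overlapped. The log2 fold changes were −0.12 ± 0.04 (edgeR adjusted p = 0.0191) and −0.08 ± 0.03 (edgeR adjusted p = 0.0476). Both calls were lost without si_NC library 2 (−0.08 and −0.05), without si_GRB2 library 2 (−0.09 and −0.06) and without si_GRB2 library 3 (−0.13 and −0.08).

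MT-ND6 (chrM:14149-14673), the only mRNA of the minus strand, was not called. It was at 668, 626 and 460.2 CPM in si_NC and at 665, 513 and 564 CPM in si_GRB2. The si_NC libraries alone spanned more than the si_GRB2 libraries did. The log2 fold change was −0.01 ± 0.10 (edgeR adjusted p = 0.955). The library protocol keeps strand, but no source said whether the counting used it, so reads of MT-ND6 and of RNA from the opposite strand may not be separated.

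**Figure D3:**
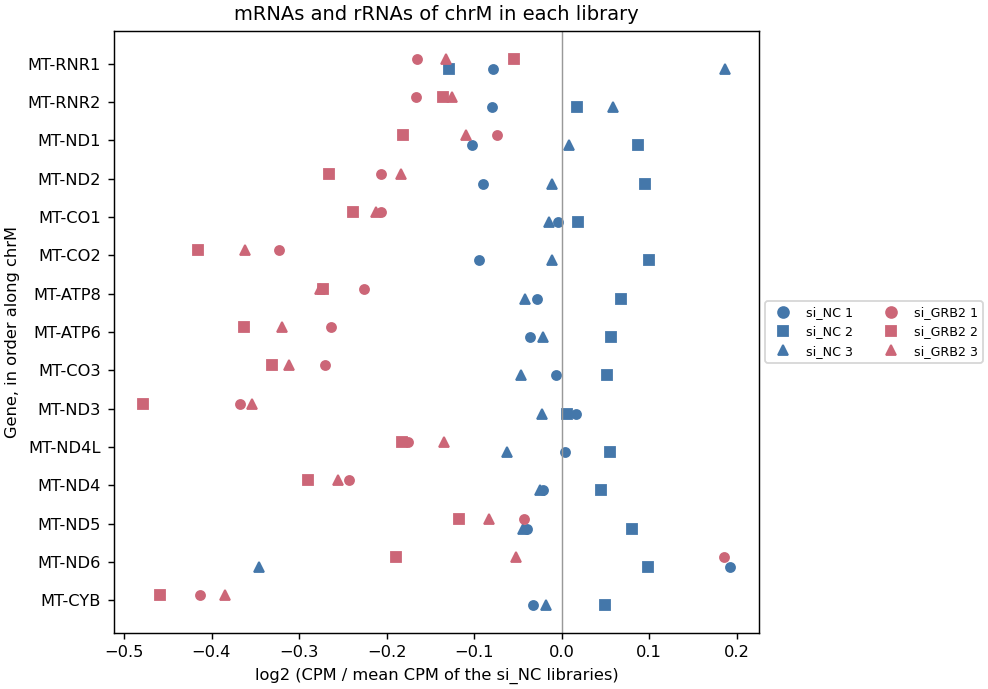
CPM of each mRNA and rRNA in each library relative to the mean of the si_NC libraries (x axis, log2), with genes in order along chrM and libraries 1, 2 and 3 as circles, squares and triangles in blue (si_NC) and red (si_GRB2). The red points lie left of all blue points in 10 mRNAs and MT-RNR2, and they overlap the blue points in MT-RNR1, MT-ND1, MT-ND5 and MT-ND6.

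The libraries of a group differed in the same direction over most mRNAs. Among the 12 plus-strand mRNAs, si_NC library 2 was the highest of its group in 11, and si_GRB2 library 2 was the lowest of its group in 11. These genes thus moved up and down together between replicates as well as between groups, and they are not 12 independent observations of the treatment.

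The 2 rRNAs, MT-RNR1 (12S, of the small ribosomal subunit) and MT-RNR2 (16S, of the large subunit), lie on the plus strand before all mRNAs. MT-RNR2 (chrM:1671-3229) was at 7162, 7659 and 7886 CPM in si_NC and at 6744, 6888 and 6940.1 CPM in si_GRB2. The groups did not overlap, and the log2 fold change was −0.14 ± 0.03 (edgeR adjusted p = 0.000713). It was −0.10 and not called when library sizes were taken from the FPKM scaling (edgeR adjusted p = 0.11).

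MT-RNR1 (chrM:648-1601) was at 2429, 2346 and 2918 CPM in si_NC and at 2286, 2469 and 2340.0 CPM in si_GRB2. Only si_NC library 3 stood above the rest. The log2 fold change was −0.12 ± 0.06 (edgeR adjusted p = 0.129), and it was −0.02 without si_NC library 3. Without si_NC library 1 or si_NC library 2 the gene was called, at −0.16 and −0.18 (edgeR adjusted p = 0.0354 and 0.0275). Most of the estimate for MT-RNR1 therefore rested on 1 library.

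The make-up of the mRNA pool also differed. This measure is free of scaling between libraries, but shares of one pool must balance, so a lower share of some members entails a higher share of others. The share of mRNA reads was lower in every si_GRB2 library than in every si_NC library for 5 mRNAs (MT-CYB, MT-ND3, MT-CO2, MT-ATP6 and MT-CO3), higher for 4 (MT-ND5, MT-ND1, MT-ND4L and MT-CO1) and overlapping for the other 4. No such share exists for the rest of the table, where by CPM 21.2% of genes had every si_GRB2 library below every si_NC library. MT-CYB held 5.62%, 5.63% and 5.66% in si_NC and 4.98%, 5.02% and 5.13% in si_GRB2. MT-ND5 held 3.83%, 3.93% and 3.80% in si_NC and 4.39%, 4.35% and 4.33% in si_GRB2. These genes lie on the same strand, with MT-ND6 and MT-TE on the opposite strand between them, and they moved in opposite directions as shares. The shares of MT-ND4 overlapped, at 25.7% ± 0.126 in si_NC and 25.6% ± 0.102 in si_GRB2 (SD, n = 3 each).

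Of 6 ratios between groups of members, 3 had no overlap between the groups, and none could pass the threshold at 3 against 3 libraries. MT-CYB per complex IV mRNA read was 0.125, 0.126 and 0.126 in si_NC and 0.111, 0.112 and 0.115 in si_GRB2, a log2 difference of −0.15 (exact permutation p = 0.1, adjusted 0.2). Complex I to complex IV mRNA reads went the other way, from 0.944 ± 0.00873 to 0.971 ± 0.00627 (log2 difference 0.04, same exact p). MT-ATP8 and MT-ATP6 to complex IV went from 0.157 ± 0.00158 to 0.153 ± 0.00229 (log2 difference −0.04, same exact p), but was 0.00 when FPKM replaced counts.

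The other 3 ratios overlapped. Reads of rRNA per mRNA read were 0.123, 0.121 and 0.138 in si_NC and 0.133, 0.144 and 0.139 in si_GRB2 (log2 difference 0.12, exact p = 0.2, adjusted 0.300). MT-RNR2 to MT-RNR1 was 2.97 ± 0.282 and 2.90 ± 0.0971 (exact permutation p = 0.900). MT-ND6 per plus-strand mRNA read was 0.00740 ± 0.00138 and 0.00879 ± 0.00102 (SD, n = 3 each, log2 difference 0.26, exact p = 0.300, adjusted 0.360). That log2 difference was 0.11 without si_NC library 3, 0.17 without si_GRB2 library 1 and 0.38 without si_NC library 1.

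Per length, levels ranged widely although 14 of these 15 genes are read from one strand. The deposited FPKM in si_NC was highest for MT-ND4 (11913 ± 455) and MT-CO1 (11791 ± 373), which differed by less than their SD (n = 3). MT-CO2 followed at 10355 ± 838. MT-ATP8 (5229.6 ± 232) and MT-ATP6 (5031 ± 237) were also within their spread of each other, above MT-CO3 at 4376 ± 137. These were the 6 highest of the 15 genes, and 5 of them encode complex IV or V.

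Below them, MT-RNR2 (3904 ± 324) and MT-ND4L (3623 ± 103) could not be ordered beyond their SD, and neither could MT-ND4L and MT-ND3 (3554 ± 78.1). The same held for MT-CYB (3158 ± 143) and MT-ND2 (2988 ± 234), and for MT-ND1 (2439 ± 205) and MT-RNR1 (2165 ± 339). The lowest levels per length were those of MT-ND5 (1359 ± 70.7) and MT-ND6 (891 ± 139). The deposited FPKM of MT-ND4L and MT-ND4 thus differed despite their common mRNA, and that of MT-ATP8 and MT-ATP6 did not differ beyond their SD. Uniquely mapped reads leave out those that fit a nuclear copy equally well, and MTATP6P1 had 15% to 16% as many reads as MT-ATP6. MT-ATP8 and MT-ND4L are short, at 207 and 297 bases. The part of these limits in the order was not tested. The rRNAs are placed by FPKM only, because poly(A) capture does not retain them as it does mRNAs.

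The tRNA genes, short adaptors of mitochondrial translation, had few reads and no called difference in the main fit. Of the 21 that passed the filter, 0 were called by edgeR in that fit or by DESeq2, and 0 had an unadjusted p under 0.05. Some other settings did call a tRNA gene. MT-TT was called higher by limma on log2(FPKM + 1) with mean FPKM of at least 1 (0.31, limma adjusted p = 0.0392). MT-TS1 was called lower by edgeR without the filter on low counts (−0.20, edgeR adjusted p = 0.00149). Their log2 fold changes ran from −0.19 for MT-TS1 to 0.28 for MT-TT, with a median of 0.06. Standard errors reached 0.38 for MT-TL2, which had 89 reads in 6 libraries, so that small differences were not detectable at this depth. The tRNA genes are 59 to 75 bases long, and the libraries were made from poly(A) RNA. Whether the reads came from mature tRNAs or from longer precursors was not tested, so the values are reads on these genes and not tRNA levels. MT-TS1, a tRNA for serine and the tRNA gene with the most reads (5649 in 6 libraries), is shown with MT-TH, the tRNA for histidine, because these genes carried the variation between libraries described next. They are written 5′ to 3′ on their own strand, in lower case throughout.
MT-TS1, chrM:7446-7514, minus strand: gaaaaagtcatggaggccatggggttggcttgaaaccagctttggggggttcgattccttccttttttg
MT-TH, chrM:12138-12206, plus strand: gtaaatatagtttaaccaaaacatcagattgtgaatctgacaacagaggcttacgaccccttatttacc

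Many tRNAs differed more between libraries of one group than between the groups. MT-TS1 was at 50.7, 43.7 and 19.4 CPM in si_NC and at 44.7, 24.8 and 30.1 CPM in si_GRB2 (log2 fold change −0.19 ± 0.24, edgeR adjusted p = 0.611). In both groups library 1 was the highest, and the lowest of all was si_NC library 3. Without si_NC library 3 the gene was called lower, at −0.52. MT-TH was at 7.88, 6.40 and 2.07 CPM in si_NC and at 8.31, 4.55 and 5.93 CPM in si_GRB2, with library 1 again the highest of each group and si_NC library 3 the lowest of all.

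This spread was found on both strands but not in the plus-strand mRNAs. By CPM of the counted reads without TMM adjustment, si_NC library 1 exceeded si_NC library 3 by more than 1.5-fold in 6 of 8 minus-strand tRNAs and in 7 of 14 plus-strand tRNAs, by up to 3.83-fold in MT-TH. Over the 12 plus-strand mRNAs the same ratio was 0.93 to 1.05, and over the rRNAs 0.84 to 0.91. The minus-strand tRNAs together had 106, 90.1 and 50 CPM on that scale in si_NC and 104, 64.1 and 72.4 in si_GRB2. MT-ND6 followed the same order, with 659.7, 610.4 and 452 in si_NC and 674, 523 and 573 in si_GRB2.

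A measure of the libraries moved with these values. The total by which FPKM was scaled could be recovered from the 2 tables, and the reads counted on genes were 78.9%, 81.6% and 85.0% of it in si_NC and 79.1%, 83.0% and 82.2% in si_GRB2. Library 1 of each group was lowest by this measure and highest in minus-strand tRNA reads, and si_NC library 3 the reverse. Its part in the tRNA and MT-ND6 values was not tested.

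**Figure D4:**
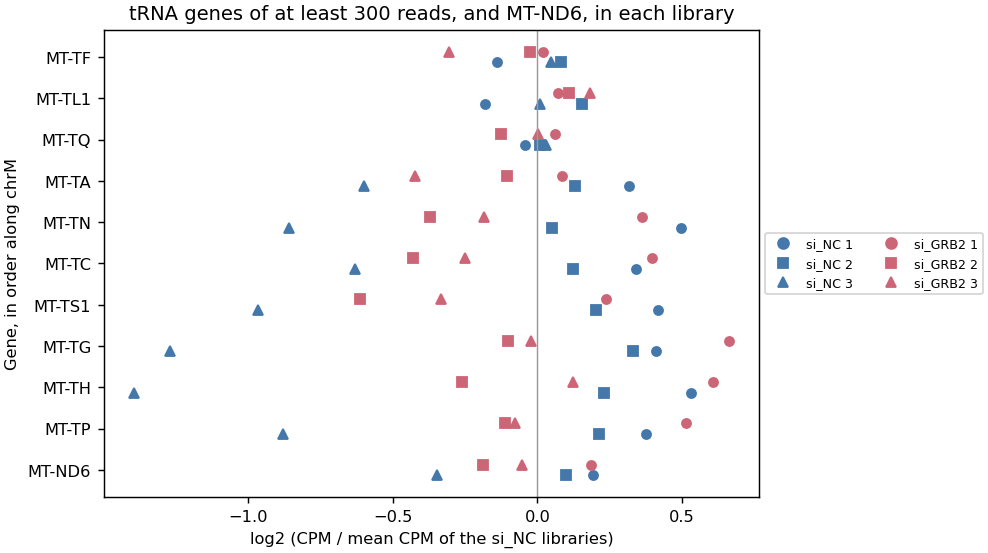
CPM relative to the mean of the si_NC libraries (x axis, log2) for the 10 tRNA genes of at least 300 reads in 6 libraries and for MT-ND6, with libraries 1, 2 and 3 as circles, squares and triangles in blue (si_NC) and red (si_GRB2). si_NC library 3 is the leftmost point in 7 tRNAs and MT-ND6 but not in MT-TF, MT-TL1 and MT-TQ.

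Nuclear copies of mitochondrial genes could share reads with the members. The table held 43 such copies by symbol, of which 8 passed the filter, and 2 were called lower, too few to set against the 15.5% of all genes. MTATP6P1 had 96359 reads in 6 libraries, between 15% and 16% of the reads of MT-ATP6. It was at 663, 694 and 664 CPM in si_NC and at 534, 524 and 537 CPM in si_GRB2, a log2 fold change of −0.34 ± 0.03 (edgeR adjusted p = 5.18e-08), beside −0.31 for MT-ATP6. With the reads of all nuclear copies added to those of their parents, MT-ATP6 was at −0.32.

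The other copies were smaller relative to their parents. MTND2P28 (98.4% identity) held 2.44% to 2.68% of the reads of MT-ND2 and was called at −0.13 (edgeR adjusted p = 0.0279), but not without si_NC library 2, si_GRB2 library 1 or si_GRB2 library 2. MTCO1P12 (98.7% identity) held at most 0.326% of the reads of MT-CO1 and was not called (−0.07, edgeR adjusted p = 0.327). MTND4P12 had 269 reads and MTCO2P12 had 223. Which of these reads came from the nuclear locus was not tested.

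Mitochondrial gene expression depends on nuclear genes that transcribe, process, stabilise and translate these RNAs. The list used here also held genes of mitochondrial DNA maintenance, such as POLG and MGME1, and nuclear regulators, such as NRF1 and GABPA. Of its 56 genes in the table, 55 were tested, 8 were lower and 7 were higher in si_GRB2. That is 27.3% called in either direction, beside 30.6% of all genes, with a median log2 fold change of −0.01. The list was thus divided in direction, as were all genes tested (2442 lower and 2396 higher). With DESeq2, or without si_NC library 2, si_GRB2 library 2 or si_GRB2 library 3, 4 were higher, and with library totals alone 16 were. Calls over all genes moved as well. They were 4838 in the main fit, 3787 by DESeq2 and 3893, 3774 and 4045 without these libraries. With library totals alone they were 5180, of which 1733 were lower, beside 2442 lower in the main fit.

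TFB2M, the factor that lets the mitochondrial RNA polymerase open a promoter, had the largest fall of the list. It was at 35.5, 39.6 and 36.4 CPM in si_NC and at 21.0, 21.0 and 22.6 CPM in si_GRB2. The groups lay far apart, and the log2 fold change of −0.79 ± 0.05 (edgeR adjusted p = 2.16e-08) made it the single gene of the list past the fold limit of 1.5. The other parts of the initiation complex did not pass the test. POLRMT, the polymerase, had a log2 fold change of 0.09 ± 0.05 (edgeR adjusted p = 0.173), and TFAM, which bends promoter DNA and packages the genome, −0.11 ± 0.04 (edgeR adjusted p = 0.07). TFAM was called without si_NC library 3 and without si_GRB2 library 3. TEFM, the elongation factor, was at 0.04 ± 0.08 (edgeR adjusted p = 0.758).

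Among factors of DNA maintenance, MGME1, an exonuclease that trims replicating mitochondrial DNA, fell. It was at 113, 112 and 112 CPM in si_NC and at 73.6, 77.6 and 82.4 CPM in si_GRB2. The si_NC libraries were almost equal and all above si_GRB2, with a log2 fold change of −0.53 ± 0.04 (edgeR adjusted p = 5.15e-08). RNASEH1, which removes RNA from RNA-DNA hybrids, fell by 0.30 on the log2 scale, and TOP3A, a topoisomerase, by 0.21. TWNK, the replicative helicase, was at −0.11 and was not called (edgeR adjusted p = 0.197). MTERF1, which binds DNA downstream of the rRNA genes, fell by 0.18, a call lost without si_GRB2 library 2.

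Genes acting on the RNA itself were mixed. LRPPRC and SLIRP, which together stabilise mitochondrial mRNAs, were at 0.07 and 0.02 and were not called. MTPAP, the poly(A) polymerase, was at −0.15 (edgeR adjusted p = 0.0507). PDE12, which removes poly(A) tails, rose by 0.19, from 45.6 ± 2.40 to 51.9 ± 1.33 CPM (SD, n = 3 each, edgeR adjusted p = 0.00508). Of the degradation pair, PNPT1 fell by 0.19 (edgeR adjusted p = 0.0033), and SUPV3L1, the helicase, was at 0.11 with a call (edgeR adjusted p = 0.0428) that was lost by DESeq2 and without si_NC library 1, si_NC library 3 or any single si_GRB2 library.

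FASTKD3 and FASTKD5, RNA-binding proteins of the FASTK family, rose by 0.21 and 0.16. Both calls were lost without si_NC library 2 or si_GRB2 library 2, and that of FASTKD3 also without library 3 of either group and by DESeq2 (adjusted p = 0.0912). With a library left out the log2 fold changes stayed between 0.16 and 0.25 for FASTKD3 and between 0.13 and 0.20 for FASTKD5. In translation, GFM1, an elongation factor, rose by 0.13, MTRF1L, a release factor, fell by 0.35, and its relative MTRF1 was at 0.22. The call of MTRF1 was lost without library 1 of either group, without si_NC library 2, without si_GRB2 library 3 and by DESeq2 (adjusted p = 0.134), while its log2 fold change stayed between 0.18 and 0.26 with a library left out.

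The partner subunits made from nuclear genes were divided in direction, as were all genes tested (2442 lower and 2396 higher). Of 71 tested subunits of complexes I, III, IV and V, 5 were lower and 8 higher, or 18.3% called in either direction, below the 30.6% of all genes, with a median log2 fold change of −0.00. In complex IV, whose mitochondrial mRNAs all fell, 0 of 11 nuclear subunits were called by edgeR or DESeq2, 0 had an unadjusted p under 0.05, and the estimates ran from −0.05 to 0.04. In complex III, 1 of 9 was called, the cytochrome c1 gene CYC1, at 0.11 ± 0.03 (edgeR adjusted p = 0.0145), a call lost without library 1 of either group. The count of higher subunits fell to 4 without si_NC library 1 and to 5 without si_NC library 3, si_GRB2 library 1 or si_GRB2 library 3, and that of lower subunits to 3 without si_GRB2 library 3. Leaving out any of these libraries gave 4045 to 4420 calls over all genes, beside 4838 in the main fit.

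In complex I, 3 of 36 nuclear subunits were lower and 4 higher, 19.4% called beside 30.6% of all genes. NDUFS7, of the arm that passes electrons to ubiquinone, was at 77.6, 81.2 and 81.1 CPM in si_NC and at 75.1, 74.0 and 64.5 CPM in si_GRB2. The groups did not overlap, with si_GRB2 library 3 the lowest. Its log2 fold change was −0.17 (edgeR adjusted p = 0.0169), a call lost without si_NC library 2 or si_GRB2 library 3. In complex V, 2 of 15 were lower and 3 higher, 33.3% called beside the same 30.6%, with ATP5PO at −0.18 (edgeR adjusted p = 0.00287) and ATP5PF at 0.17 (edgeR adjusted p = 0.000664). Both encode parts of the stalk that joins the catalytic head to the membrane part.

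**Figure D5:**
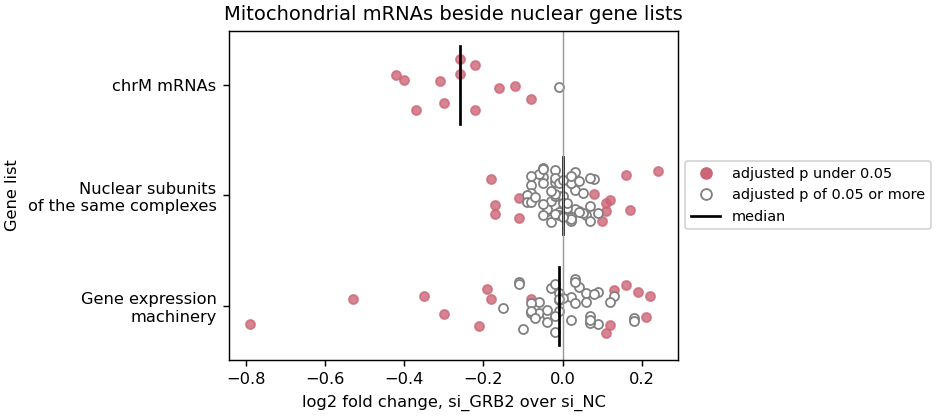
log2 fold change of si_GRB2 over si_NC (x axis) for 3 sets of genes. These are the 13 chrM mRNAs, 71 nuclear subunits of the same complexes and 55 genes of mitochondrial gene expression and DNA maintenance. Each point is a gene, red at an edgeR adjusted p under 0.05, and the black line is the median (heights within a row are only for legibility). All chrM mRNAs lie below 0 with a median of −0.26, and the nuclear lists are centred at −0.00 and −0.01, with TFB2M at −0.79 the leftmost point.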

How the data were processed

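SK-BR-3 poly(A) RNA was sequenced in 3 si_NC and 3 si_GRB2 libraries, grouped by the description label. The authors cleaned the reads with FASTX-Toolkit 0.0.13, aligned them to GRCh38 with HISAT2 and used uniquely mapped reads. The authors deposited the count of reads per gene, not normalized, and FPKM per gene. The counting tool, its strand setting and the annotation release were not given in the sources used here. Uniquely mapped reads leave out those that fit a mitochondrial gene and a nuclear copy equally well.

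Members were the chrM rows. Positions and sequences came from GENCODE 44 and the GRCh38 genome. Counts were filtered with filterByExpr to 15801 genes and then scaled by TMM over those genes. The groups were compared over these by the quasi-likelihood test of edgeR 4.0.16 in R 4.3.3, without covariates, and p-values were adjusted after Benjamini and Hochberg. SE is the log2 fold change over the square root of its F statistic. Shares and ratios were compared by two-sided exact permutation over libraries (scipy 1.17.1). The p-values cover only the spread among 3 libraries. DESeq2 1.42.0 and limma 3.58.1 on log2 FPKM (1 or 0.1 added before the log) were alternatives, as were other scalings, filters, a replicate block and each library left out. The edgeR fit was tested on simulated counts with the same dispersion for every gene. DESeq2, limma and the comparisons of shares and ratios were not tested on simulated data.

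The members and lists were chosen with earlier results of these data known. Named by rule were all mitochondrial genes, GRB2, 10 preset machinery genes with the 5 largest called falls and 5 largest called rises among the others, the called nuclear subunit of each complex with the largest fall and rise, and the 5 nuclear copies with most reads. One gene that this rule names is not reported here.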

Additional observations from a re-analysis of the deposited data

How the results depend on the processing

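Replicate numbers did not pair the libraries (correlations of same-numbered deviations 0.23, −0.09 and 0.08). With the number as a replicate block, 14 mitochondrial genes were called lower, MT-RNR1 among them. Of 591 refits of the 34 named genes that were called, 473 kept the call, 118 lost it and 0 reversed its direction. Of 577 refits of the 33 that were not called, 16 gained a call. Of all 1168 refits, 66 changed the sign of a gene that was called in neither the main fit nor that refit. Settings taken from the FPKM scaling total and the sums with nuclear copies were chosen after seeing the data. The median of all genes moved by at most 0.050 (library totals only). The cause of the changes below was not tested.

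The log2 ratio of the mitochondrial share (−0.19 for all genes, −0.21 for mRNAs) was −0.24 and −0.26 relative to the TMM-scaled depth of other reads, and −0.15 and −0.17 as a share of summed FPKM. As ratios of FPKM, complex I to IV was 0.06, MT-CYB to complex IV −0.13, and MT-ATP8 and MT-ATP6 to complex IV turned to 0.00. Of mitochondrial genes, 2 were called lower by limma on log2(FPKM + 1), 0 on log2(FPKM + 0.1) and 0 under the fold limit of 1.5, and 2 higher with mean FPKM of at least 1. Leaving out one library each gave 11 to 14 lower.

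For the machinery list, 8 lower became 2 and 2 by limma on FPKM with both pseudocounts, 4 with mean FPKM of at least 1, 4 with library sizes from FPKM and 1 under the fold limit. Its 7 higher became 4 with DESeq2, 16 with library totals only, 1 and 1 by limma, 0 under the fold limit and 4 at an adjusted p under 0.01, and 4 to 6 with one library left out. For nuclear subunits, 5 lower became 2 with library totals only, 8 with at least 10 counts in every library, 0, 0 and 0 by limma, 0 with library sizes from FPKM, 0 under the fold limit and 3 at an adjusted p under 0.01, and 3 to 7 with one library left out. Their 8 higher became 20 with library totals only, 2 and 2 by limma, 0 under the fold limit and 4 at an adjusted p under 0.01, and 4 to 10 with one library left out. Calls over all genes moved with the settings too. The main fit had 4838 of 15801 (2442 lower), and library totals only 5180 (1733 lower). By limma they were 1400 (566 lower) and 1534 (607 lower) of 29912, and 2689 (987 lower) of 10888 with mean FPKM of at least 1. Library sizes from FPKM gave 3827 of 15756 (1354 lower), DESeq2 3787 of 13864 and the fold limit 398 of 15801. One library left out gave 3774 to 4420.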
